A study of Mus musculus with 4 samples.

Results

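Cells keep reactive oxygen species, lipid peroxides and electrophiles in check with 2 thiol systems, which were examined in E14 mouse ES cells with and without Npac. Glutathione, a tripeptide that contains cysteine, is spent by glutathione peroxidases and glutathione S-transferases and is restored by glutathione reductase. Thioredoxin serves most peroxiredoxins in the same manner and is restored by thioredoxin reductases. Many genes of both systems are targets of the transcription factor Nrf2 (Nfe2l2), which the adaptor Keap1 holds at a low level until oxidants or electrophiles modify it. Cysteine supply limits glutathione synthesis in many cell types, and it comes from cystine imported by the Slc7a11 transporter or from methionine through Cth.

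The genes were chosen by name, as the protein-coding genes of the deposited count table that belong to the glutathione S-transferase, glutathione peroxidase, peroxiredoxin, thioredoxin-named and superoxide dismutase families, together with Cat, Gclc, Gclm, Gsr, Gss, Nqo1, Hmox1, Hmox2, Srxn1, Slc7a11, Nfe2l2 and Keap1. This gave 73 of the 56748 listed genes, of which 21970 are protein-coding. The label fits most of the names, but thioredoxin-named genes such as Txnl4a and Txnl4b encode spliceosome proteins with a thioredoxin fold. RNA-seq was performed on 2 libraries of wild-type cells (WT1 and WT2) and on 1 library of each of 2 Npac knockout lines (KO1 and KO2), made with Cas9 and guides to exon 3 of the gene and grown from picked, puromycin-resistant colonies. All cells were E14, an established ES cell line, kept without feeder cells on gelatin in medium with serum, LIF and the reducing agent β-mercaptoethanol. Nothing in the sources used here says that WT1 and WT2 were separate cultures, and the KO lines are picked colonies, so p-values measure the spread between these 4 libraries, which may be in part technical or clonal. In bulk RNA, fewer cells that use a gene and less RNA per cell cannot be told apart.

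The libraries held between 15850805 and 16965120 counted reads. Npac, listed as Glyr1 (ENSMUSG00000022536), was at 219 ± 57.3 CPM (counts scaled to library size by TMM, SD, n = 2) in WT cells and at 49.6 ± 2.43 CPM (SD, n = 2) in Npac KO cells, with a log2 fold change of -2.14 (SE 0.23, adjusted p = 0.00174, edgeR). Of 8 ES cell markers, Zfp42 was down-regulated and none was up-regulated, and their summed level was 5744 to 7054 CPM in the WT libraries and 4632 to 4890 CPM in the KO libraries. Fibroblast or feeder markers summed to 35.8 to 59.1 CPM in WT and 45.1 to 50.7 CPM in KO libraries, with 4 of 7 at 3 reads or fewer in every library, Col3a1 and Dcn at 0, and Col1a1 up-regulated. Primitive endoderm markers summed to 28.2 to 29.3 CPM in WT and 14.8 to 21.7 CPM in KO libraries, with Foxa2 at 3 reads or fewer. Sox7 was down-regulated, from 17.9 and 9.27 CPM in WT1 and WT2 to 0.257 and 0.924 CPM in KO1 and KO2. The other tested markers of this list were not called and went both ways. Their log2 fold changes were 0.48 for Gata4, 0.94 for Gata6, -0.71 for Dab2 and -0.18 for Sox17. Trophectoderm markers summed to 84.7 to 88.3 CPM in WT and 190 to 221 CPM in KO libraries. Most of this rise was Tfap2c, up-regulated from 50.7 and 31.7 CPM in WT to 155 and 134 CPM in KO libraries. Krt8, Krt7 and Eomes were not called, with log2 fold changes of 0.52, 0.68 and -0.16. The part of these cells in the results was not tested. Genes of chromosome 8 had a median log2 difference from WT of 0.51 in KO1 and 0.54 in KO2, and those of chromosome 11 of 0.51 in both, while the medians of the other chromosomes lay between -0.193 and 0.022.

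Of the 73 genes, 65 passed edgeR's filter on low counts and were tested. In Npac KO cells, 10 of the 65 were up-regulated and 10 were down-regulated with the thresholds set at 0.05 for the adjusted p and 1.5 for the fold change. Over all 18157 genes tested, 11.0% were up-regulated and 10.7% were down-regulated. Both KO libraries lay above both WT libraries for 28 of the 65 genes and below them for 15, against 33.2% and 32.5% of all tested genes. The median log2 fold change was 0.18 for the 65 genes and 0.002 for all tested genes, and the median of its absolute size was 0.61 and 0.55. Without KO1 the numbers of up- and down-regulated genes were 6 and 3, without KO2 8 and 3, without WT1 17 and 13, and without WT2 22 and 12. With no filter on low counts, which kept 71 of the 73 genes, they were 18 and 10. The fits without WT1 or WT2 held 66 of the genes. The share called over all tested genes was taken only for the fit with all 4 libraries and the filter. Whether these changes in number are particular to these genes was therefore not tested. The 8 untested genes were Gsta1, Gsta2, Gsta5, Gstt4, Gpx5, Sod3, Txndc2 and Txndc8, of which Gsta1 and Txndc8 had no reads.

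**Figure D1:**
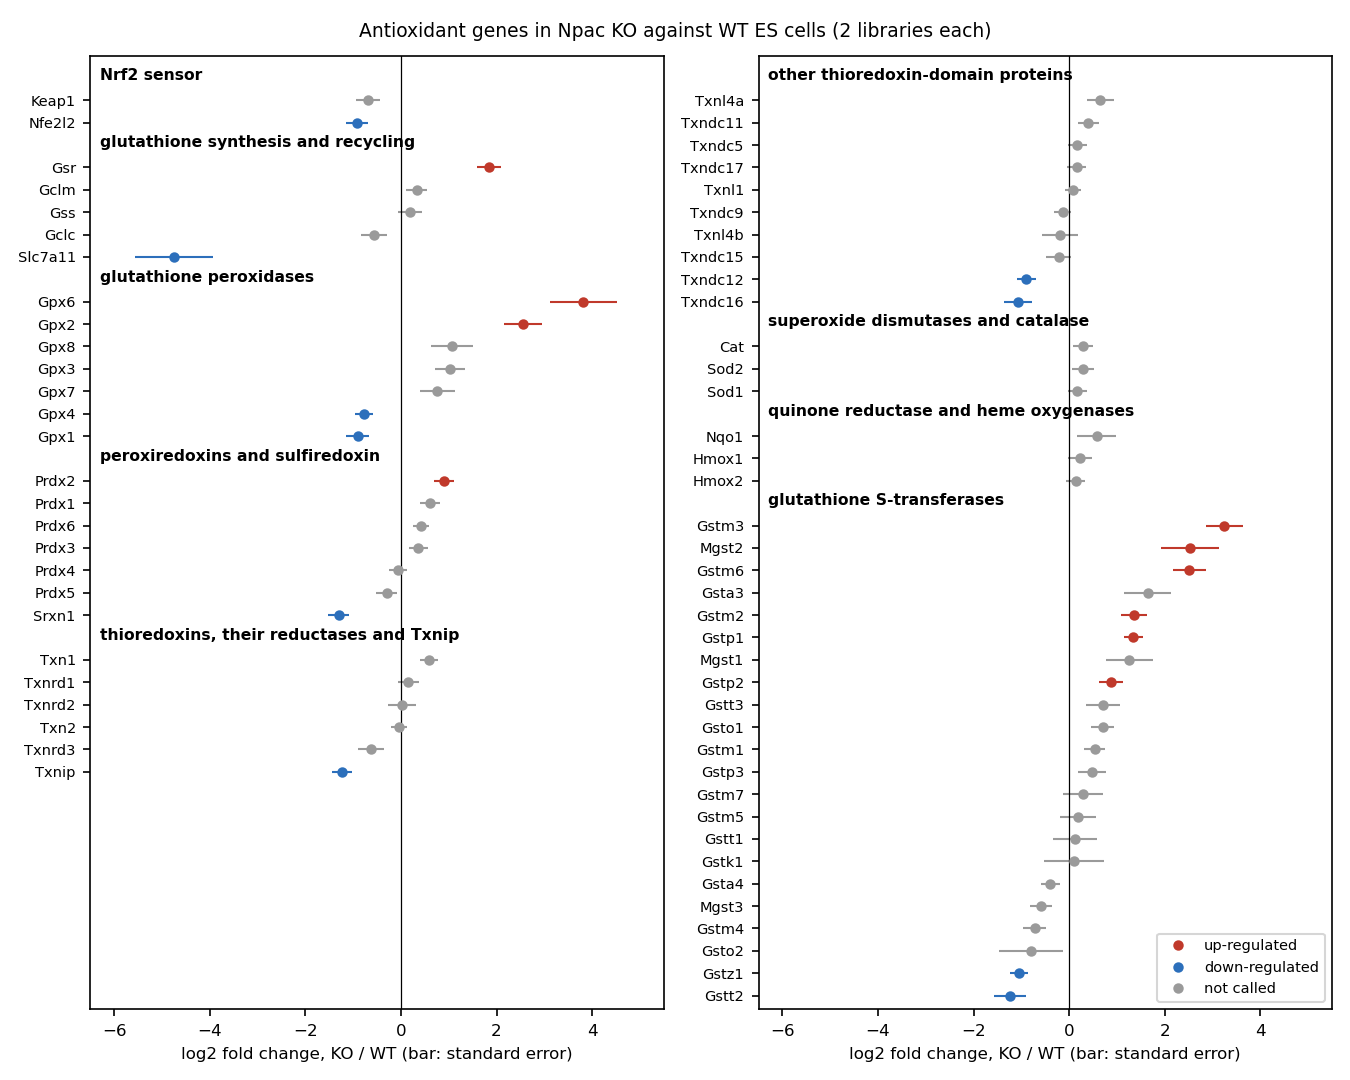
Log2 fold change (x axis, KO over WT) of the 65 tested genes, grouped by role. Bars are the standard error derived from the edgeR test statistic, with 2 libraries in each group. Red points are the 10 up-regulated genes, blue points the 10 down-regulated genes and gray points those not called, with Slc7a11 at -4.74 and Gpx6 at 3.82 as the extremes.

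Levels were compared in the authors' FPKM (reads scaled to library size and to the deposited gene length). That length can exceed a transcript's, as for Sod1 with 3970 bases against 641 in the transcript used here, so the order of genes holds for this scale alone. On it Txnip was highest, with 763 and 620 FPKM in WT1 and WT2 and 284 and 301 FPKM in KO1 and KO2. Gpx4 came next by mean over the 4 libraries, with 332 and 381 FPKM in WT and 201 and 216 FPKM in KO libraries, followed by Prdx1, Txn1, Gsta4 and Sod1. In the KO libraries Prdx1 (362 and 314 FPKM) stood above both Txnip and Gpx4, whereas in the WT libraries it stood below both with 193 and 252 FPKM. At the other end, the KO levels of Slc7a11 were 0.0046 and 0.0245 FPKM, and those of Mgst2 were 0.398 and 0.46 FPKM.

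Because Nrf2 acts through a short DNA element, the 300-base RefSeq promoters (GRCm38.p6, 250 bases before to 50 after the start) were searched for the letters TGACNNNGC of the antioxidant response element, on both strands, the reverse reading GCNNNGTCA. Of the 73 genes, 63 had a promoter in the table, and the letters were found in 13 of them (20.6%), against 3781 of all 27025 genes. Counted by promoter, since some genes have several, this was 13 of 83 (15.7%), against 12.4% of all 32851 promoters. They were found in none of the 9 up-regulated genes with a promoter, in Nfe2l2 and Srxn1 among the 9 down-regulated ones, and in 10 of the 39 that were not called. A match describes these letters in this window and nothing about binding. Other spellings of the element were not searched, so the lack of a match does not show that a promoter lacks the element. In 4 of the genes most tied to the Nrf2 system, the 80 bases around the match are shown from 5′ to 3′ on the strand of the gene, with the match in capitals.
Nfe2l2 (chr2:75704834-75704913, minus strand): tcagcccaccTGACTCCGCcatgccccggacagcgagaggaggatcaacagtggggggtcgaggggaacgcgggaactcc
Gclm (chr3:122245388-122245467, plus strand): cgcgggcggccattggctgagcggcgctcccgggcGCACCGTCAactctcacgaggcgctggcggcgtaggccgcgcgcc
Prdx1 (chr4:116685431-116685510, plus strand): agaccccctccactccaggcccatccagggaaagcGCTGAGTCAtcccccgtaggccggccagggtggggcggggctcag
Txnrd1 (chr10:82859079-82859158, plus strand): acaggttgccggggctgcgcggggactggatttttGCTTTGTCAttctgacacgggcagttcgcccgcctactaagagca
The first base of the match lay 240 bases before the start in Nfe2l2, 134 in Gclm, 133 in Prdx1 and 92 in Txnrd1. Of these 4 genes with the letters upstream, Nfe2l2 was down-regulated and the other three were not called.

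Of the Nrf2 pair itself, Nfe2l2 was down-regulated in Npac KO cells and Keap1 was not called. Nfe2l2 (ENSMUSG00000015839) was at 131 and 89.7 CPM in WT1 and WT2 and at 53.7 and 63.1 CPM in KO1 and KO2. Neither KO library reached the level of a WT library, and the log2 fold change was -0.92 (SE 0.23, adjusted p = 0.0282), which is 1.89-fold lower. Keap1, which was at 33.3 and 25.1 CPM in WT and 19.9 and 16.5 CPM in KO libraries, did not pass the threshold (log2 fold change -0.68, SE 0.25, adjusted p = 0.0845). It lies on chromosome 9, its groups did not overlap either, and it was called lower without WT2 (log2 fold change -0.88, adjusted p = 0.00146). The call for Nfe2l2 rested on both KO libraries, as its adjusted p was 0.184 without KO1 and 0.101 without KO2.

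The enzymes most often measured as Nrf2 output were not called with all 4 libraries. Nqo1, a quinone reductase, was at 37.7 and 15.3 CPM in WT1 and WT2 and at 46.5 and 32.4 CPM in KO1 and KO2, so the groups overlapped (log2 fold change 0.57, SE 0.40, adjusted p = 0.334). Hmox1, the inducible heme oxygenase, was at 97.8 and 59.9 CPM in WT and 89.2 and 94.9 CPM in KO libraries, a log2 fold change of 0.22 (SE 0.25, adjusted p = 0.549). Without WT1 both were called higher, with log2 fold changes of 1.34 (adjusted p = 7.38e-05) for Nqo1 and 0.59 (adjusted p = 0.0144) for Hmox1, and without WT2 these were 0.06 and -0.09. Nqo1 and Hmox1 lie on chromosome 8, and their log2 fold changes were 0.049 and -0.303 once the median of each chromosome was removed from the KO libraries. Hmox2, the constitutive form, stayed between 26.1 and 29.7 CPM in all libraries. With all libraries, none of these 3 genes passed edgeR's test, none had an unadjusted p under 0.05 and DESeq2 called none. Superoxide dismutases, which turn superoxide into hydrogen peroxide, and catalase, which breaks that down, gave the same count of 0 in 3 tested genes by edgeR, at an unadjusted p under 0.05 and by DESeq2. Over all tested genes 21.7% were called by edgeR, and a count of 0 in 3 genes cannot be told from that share. Sod1 was at 471 and 573 CPM in WT and 627 and 549 CPM in KO libraries, Sod2 at 161 and 112 against 181 and 152 CPM, and Cat at 85.0 and 74.5 against 111 and 84.6 CPM. The KO and WT libraries overlapped for all 3, with log2 fold changes of 0.17 (SE 0.20), 0.29 (SE 0.22) and 0.29 (SE 0.20).

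In the glutathione synthesis and recycling group, the importer of cystine fell and glutathione reductase rose, while the enzymes of synthesis were not called with all 4 libraries. Slc7a11 (ENSMUSG00000027737), the light chain of the cystine and glutamate exchanger, had 130 and 56 reads in WT1 and WT2 and 1 and 6 reads in KO1 and KO2. Scaled to library size, the WT libraries held 26.7 times as many reads as the KO libraries, with a 95% interval of 12.7 to 67.2 that covers counting error only. The fitted log2 fold change was -4.74 (SE 0.81, adjusted p = 0.00849), and it lay between -6.33 and -3.90 with each library left out. On the FPKM scale with a pseudocount of 1, where so low a gene moves little, its adjusted p was 0.0631. Gsr (ENSMUSG00000031584), which restores reduced glutathione with NADPH, was at 53.8 and 37.3 CPM in WT and at 186 and 138 CPM in KO libraries. This was a 3.57-fold rise (log2 fold change 1.84, SE 0.25, adjusted p = 0.00399). Gsr lies on chromosome 8, and with chromosome medians removed its log2 fold change was 1.31 (adjusted p = 0.0122).

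Glutamate-cysteine ligase, which joins cysteine to glutamate, has a catalytic subunit (Gclc) and a modifier subunit (Gclm). Gclc was at 120 and 75.4 CPM in WT and 75.5 and 56.5 CPM in KO libraries, and WT2 and KO1 were nearly level (log2 fold change -0.56, SE 0.26, adjusted p = 0.161, but -0.87 with adjusted p = 8.49e-05 without WT2). Gclm was at 76.1 and 53.3 CPM in WT and at 85.0 and 77.5 CPM in KO libraries, a log2 fold change of 0.33 (SE 0.22, adjusted p = 0.309). Glutathione synthetase, Gss, which adds the glycine, was at 22.9 and 23.1 CPM in WT and at 21.2 and 30.9 CPM in KO libraries (log2 fold change 0.18, SE 0.25, adjusted p = 0.636). Its 2 KO libraries lay on either side of the WT pair.

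Genes outside the name rule that supply cysteine or spend glutathione were taken from a list of 56 further genes of these pathways. Over the whole list 5 were up-regulated and 7 were down-regulated, with a median log2 fold change of -0.04. As shares these are 8.93% and 12.5%, near the 11.0% and 10.7% of all tested genes. These numbers were 2 and 5 without KO1, 1 and 3 without KO2, 6 and 9 without WT1, and 12 and 10 without WT2. Of 3 tested genes of cystine and cysteine supply, Cth and Slc3a2 were down-regulated. Cth, cystathionine γ-lyase, which makes cysteine from cystathionine, had 5055 and 3598 reads in WT and 487 and 617 reads in KO libraries, 8.01-fold lower (SE 0.27 on the log2 scale, adjusted p = 0.000896). Slc3a2, the heavy chain that Slc7a11 and several other amino acid transporters share, was at 592 and 555 CPM in WT and at 286 and 324 CPM in KO libraries (log2 fold change -0.91, SE 0.18, adjusted p = 0.0139). Its adjusted p was 0.132 without KO1 and 0.0745 without KO2. Thus the transporter's light and heavy chains and the lyase were each lower in both KO libraries than in either WT library. Over all tested genes, 32.5% were so placed. Cbs, the remaining gene of this supply list, was not called and its groups overlapped (log2 fold change 0.40, SE 0.24, adjusted p = 0.264, edgeR).

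Among 9 genes of glutathione breakdown and conjugate handling, Chac1 and Glo1 were down-regulated and Ggct and Ggt5 were up-regulated. These are 22.2% each way, against 10.7% and 11.0% of all tested genes. Chac1, which cleaves glutathione inside the cell and is known as a stress-response gene, had 3579 and 2374 reads in WT1 and WT2 and 28 and 303 reads in KO1 and KO2. The KO lines differed from each other, and the log2 fold change of -4.25 (SE 0.82, adjusted p = 0.0121) was -3.41 without KO1 and -6.66 without KO2. Glo1, which uses glutathione to detoxify methylglyoxal, was 2.25-fold lower, at 199 and 211 CPM against 94.8 and 87.3 CPM (adjusted p = 0.00534, and 0.0578 without KO2). Ggct, which splits γ-glutamyl peptides left from glutathione, was at 8.58 and 14.8 CPM in WT and 30.2 and 32.5 CPM in KO libraries (log2 fold change 1.42, SE 0.30, adjusted p = 0.0159, and 0.0551 without KO2). Ggt5, a surface enzyme that cuts glutathione conjugates, had 12 and 17 reads in WT and 46 and 69 reads in KO libraries (log2 fold change 1.97, SE 0.49, adjusted p = 0.0271, but 0.103 without KO1 and 0.222 without KO2). In the list of 8 glutaredoxins and methionine sulfoxide reductases only Glrx was called (12.5%, against 21.7% of all tested genes). Glrx, glutaredoxin 1, which removes glutathione from protein thiols, fell from 216 and 329 reads to 9 and 17 reads, 20.8-fold lower (log2 fold change -4.38, SE 0.43, adjusted p = 0.00117).

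**Figure D2:**
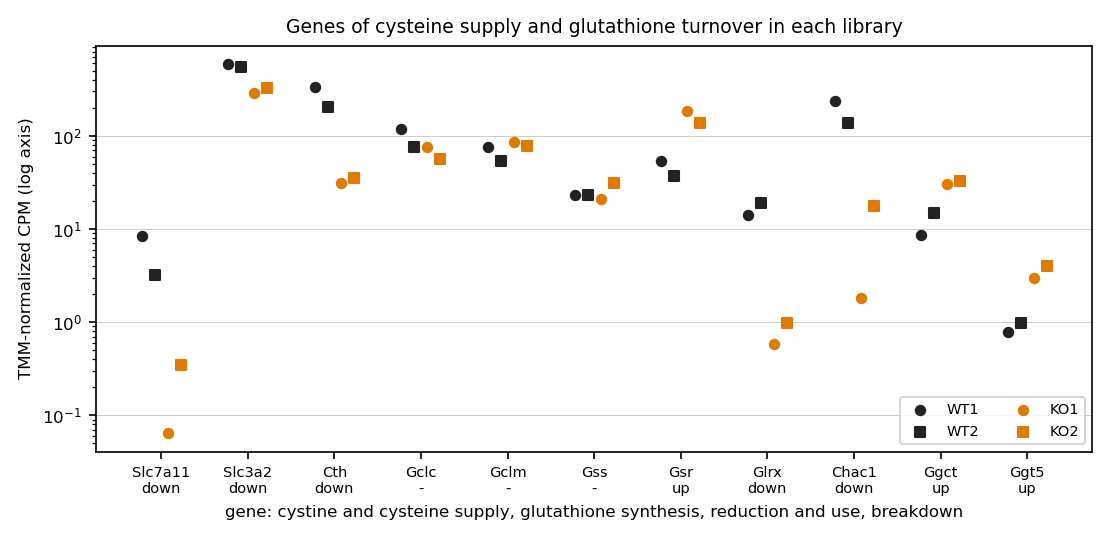
TMM-normalized CPM on a log axis for genes of cysteine supply and glutathione turnover, with 1 point for each library (black WT, orange KO, circles replicate 1, squares replicate 2) and the call under each name. Slc7a11, Cth, Glrx and Chac1 show the widest gaps below WT, and the 2 KO points of Chac1 stand apart at 1.8 and 17.5 CPM.

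The glutathione peroxidases split by member, with 2 up-regulated and 2 down-regulated of 7 tested. These are 28.6% each way, against 11.0% and 10.7% of all tested genes. In all 7 the KO and WT libraries did not overlap (5 above, 2 below, where 33.2% and 32.5% of all tested genes were so placed). The members that fell are the widely used ones. Gpx4 (ENSMUSG00000075706), which reduces lipid hydroperoxides in membranes and protects cells from ferroptosis, was at 577 and 662 CPM in WT and 348 and 379 CPM in KO libraries (log2 fold change -0.77, SE 0.19, adjusted p = 0.0252). Gpx1 (ENSMUSG00000063856), the main cytosolic form, was at 27.1 and 28.4 CPM in WT and 17.0 and 12.7 CPM in KO libraries (log2 fold change -0.91, SE 0.25, adjusted p = 0.037). Both calls were lost with a single KO library, with an adjusted p of 0.204 for Gpx4 and 0.108 for Gpx1 without KO1, and of 0.143 and 0.339 without KO2. With chromosome medians removed, the adjusted p of Gpx1 was 0.078. Of the 100-base windows of the Gpx4 transcript, 48.4% also occur in the pseudogene Gpx4-ps2, which held 1621 and 2253 reads in WT and 1138 and 1156 reads in KO libraries. Adding the reads of pseudogenes with a matching sequence left Gpx4 at a log2 fold change of -0.77 (adjusted p = 0.0259).

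Gpx2, the form best known from the gut, and Gpx6, best known from olfactory tissue, rose from low levels. Gpx2 (ENSMUSG00000042808) went from 59 and 145 reads in WT1 and WT2 to 665 and 497 reads in KO1 and KO2, a 5.84-fold rise (log2 fold change 2.55, SE 0.40, adjusted p = 0.00604). Gpx6 (ENSMUSG00000004341) had 1 and 5 reads in WT and 42 and 45 reads in KO libraries, and the ratio of scaled reads was 14.5 (95% interval 6.38 to 40.5, counting error only; adjusted p = 0.0103). Gpx3, the secreted form, was at 15.1 and 28.5 CPM in WT and 38.7 and 49.8 CPM in KO libraries (log2 fold change 1.02, adjusted p = 0.055). It lies on chromosome 11, and with chromosome medians removed its log2 fold change was 0.51 (adjusted p = 0.283). In 9 of 12 other settings with all libraries it was not called either. With a library left out, its log2 fold change ran from 0.61 (without WT1) to 1.55 (without WT2). Gpx7 and Gpx8, of the endoplasmic reticulum, had log2 fold changes of 0.76 (adjusted p = 0.17) and 1.07 (adjusted p = 0.119).

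The peroxiredoxins, most of which reduce hydrogen peroxide with electrons from thioredoxin, gave 1 up-regulated gene of 6 (against 11.0% of all tested genes). Sulfiredoxin, which rescues some of them once they are over-oxidized, was down-regulated. Prdx2 (ENSMUSG00000005161) rose from 112 and 141 CPM to 260 and 213 CPM (log2 fold change 0.90, SE 0.20, adjusted p = 0.0205), but its adjusted p was 0.184 without KO1 and 0.0519 without KO2. It lies on chromosome 8, and with chromosome medians removed its log2 fold change was 0.38 (adjusted p = 0.237). Srxn1 (ENSMUSG00000032802) fell from 91.0 and 65.2 CPM to 32.2 and 31.3 CPM, 2.46-fold lower (log2 fold change -1.30, SE 0.22, adjusted p = 0.00807). Its call held with each library left out. Prdx1, the most abundant peroxiredoxin here, was at 590 and 774 CPM in WT and 1107 and 973 CPM in KO libraries, with no overlap, and did not pass the adjusted threshold (log2 fold change 0.61, SE 0.21, adjusted p = 0.0759, but 0.81 with adjusted p = 0.00341 without WT2). Prdx6 was at 115 and 122 CPM against 157 and 159 CPM (log2 fold change 0.41, adjusted p = 0.117). Mitochondrial Prdx3 was at 40.7 and 50.4 CPM in WT and 62.1 and 55.0 CPM in KO libraries (log2 fold change 0.36, adjusted p = 0.226). Prdx4, of the endoplasmic reticulum, was at 54.7 and 63.0 CPM against 58.8 and 54.3 CPM, and Prdx5 was at 53.6 and 77.2 CPM against 52.3 and 54.0 CPM, with overlapping groups in both.

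In the thioredoxin group Txnip was called, down-regulated, of 6 genes tested (16.7%, against 21.7% of all tested genes called). Txnip (ENSMUSG00000038393), which binds reduced thioredoxin and also limits glucose uptake, had 36645 and 34111 reads in WT1 and WT2 and 13826 and 16551 reads in KO1 and KO2. Normalized, this was 2399 and 1952 CPM against 890 and 956 CPM, 2.36-fold lower (log2 fold change -1.24, SE 0.20, adjusted p = 0.00745), and the call held with each library left out. Of the windows of Txnip, 15.1% also occur in Gm15441, so some reads may not be told apart. Its binding partner Txn1, the cytosolic thioredoxin, was at 183 and 200 CPM in WT and 308 and 266 CPM in KO libraries, with no overlap (log2 fold change 0.58, SE 0.18, adjusted p = 0.0567, but 0.65 with adjusted p = 0.00715 without WT2). The mitochondrial Txn2 was at 94.5 and 106 CPM in WT and 101 and 93.7 CPM in KO libraries (log2 fold change -0.04, SE 0.18). Of the reductases, Txnrd1 was at 447 and 319 CPM against 455 and 394 CPM (log2 fold change 0.15, SE 0.22, adjusted p = 0.661), and the mitochondrial Txnrd2 stayed between 8.76 and 9.48 CPM. For Txnrd3 the log2 fold change was -0.62 (adjusted p = 0.128).

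Among 10 tested proteins with other thioredoxin domains, 2 were down-regulated and none was up-regulated by edgeR or by DESeq2, with 1 higher at an unadjusted p under 0.05. Txndc12, an oxidoreductase of the endoplasmic reticulum, was at 68.8 and 75.3 CPM in WT and 42.0 and 35.5 CPM in KO libraries (log2 fold change -0.89, SE 0.19, adjusted p = 0.0167). Txndc16, also of the secretory pathway, was at 20.6 and 21.3 CPM against 7.98 and 12.0 CPM (log2 fold change -1.07, SE 0.29, adjusted p = 0.037). Their adjusted p was 0.0845 and 0.321 without KO1 and 0.219 and 0.0763 without KO2, and that of Txndc16 was 0.0546 with chromosome medians removed. The other eight had log2 fold changes between -0.22 and 0.65.

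Glutathione S-transferases, which couple glutathione to electrophiles, were the largest group, with 6 up-regulated and 2 down-regulated of 22 tested (27.3% and 9.09%, against 11.0% and 10.7% of all tested genes) and a median log2 fold change of 0.51. The up-regulated genes were in classes mu (3 of 7 tested), pi (2 of 3) and microsomal (1 of 3), and the down-regulated ones in theta (1 of 3) and zeta (Gstz1 alone). Gstm3 (ENSMUSG00000004038) went from 32 and 81 reads in WT1 and WT2 to 493 and 566 reads in KO1 and KO2, a 9.49-fold rise (log2 fold change 3.25, SE 0.38, adjusted p = 0.00245). Gstm6 (ENSMUSG00000068762) went from 42 and 80 reads to 321 and 372 reads, a 5.72-fold rise (log2 fold change 2.52, SE 0.34, adjusted p = 0.00394). Gstm2 (ENSMUSG00000040562) had 181 and 229 reads in WT and 594 and 440 reads in KO libraries, a 2.55-fold rise (log2 fold change 1.35, SE 0.27, adjusted p = 0.0139, but 0.164 without KO1). In all 3 genes both KO libraries stood above both WT libraries.

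The 7 mu genes lie side by side on chromosome 3, within 149074 bases in the deposited coordinates, in the order Gstm5, Gstm7, Gstm6, Gstm3, Gstm2, Gstm1 and Gstm4. The 3 that rose are neighbours in the middle of this cluster. Toward one end, Gstm7 and Gstm5 had log2 fold changes of 0.29 (SE 0.42) and 0.19 (SE 0.38) with overlapping groups. Toward the other, Gstm1, the most abundant of the 7 in every library, was at 40.5 and 43.4 CPM in WT and 71.5 and 50.3 CPM in KO libraries (log2 fold change 0.54, SE 0.22, adjusted p = 0.122), and Gstm4 was at 24.7 and 33.5 CPM against 16.7 and 18.6 CPM (log2 fold change -0.72, SE 0.25, adjusted p = 0.0715). In WT libraries Gstm3 was at 1.59 and 3.51 FPKM and Gstm1 at 27.3 and 29.2 FPKM, and in KO libraries the levels were 24.1 and 24.5 FPKM for Gstm3 and 48.4 and 33.5 FPKM for Gstm1. Of the windows of Gstm3, 13.8% also occur in other transcripts, against 2.41% for Gstm6 and 0.622% for Gstm2.

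**Figure D3:**
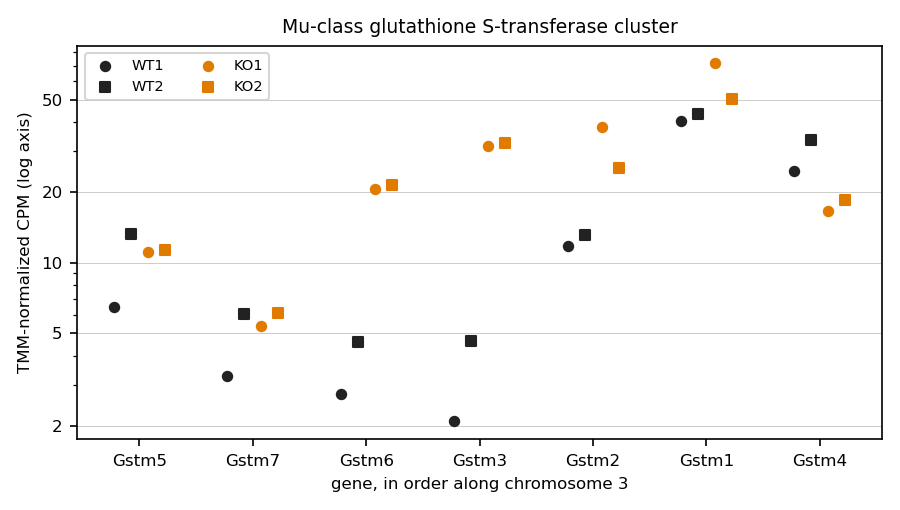
TMM-normalized CPM on a log axis for the 7 mu-class genes in their order along chromosome 3, with 1 point for each library (black WT, orange KO). The 3 genes in the middle, Gstm6, Gstm3 and Gstm2, have both KO points above both WT points by the widest margins, while Gstm5 and Gstm7 overlap and Gstm4 lies lower in KO.

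Of the 3 pi-class genes of chromosome 19, Gstp1 and Gstp2 were up-regulated. Gstp1 (ENSMUSG00000060803) was at 30.9 and 27.0 CPM in WT and 78.6 and 68.1 CPM in KO libraries (log2 fold change 1.34, SE 0.20, adjusted p = 0.00502). Gstp2 (ENSMUSG00000038155) was at 17.1 and 13.0 CPM in WT and 30.0 and 25.4 CPM in KO libraries (log2 fold change 0.88, SE 0.25, adjusted p = 0.0422, but 0.329 without KO1 and 0.139 without KO2). These 2 genes are near copies. Of the windows of Gstp1 52.8%, and of Gstp2 63.5%, also occur in the other gene or in the pseudogene Gstp-ps, which itself had 180 and 190 reads in WT and 363 and 390 reads in KO libraries, so how reads were divided among them is uncertain. The likeness extends to their promoters, which were identical at 239 of 273 aligned bases (87.5%) in RefSeq GRCm38.p6. A further 18 bases faced gaps in the alignment and are left out of this share. The last 80 bases before each start are given from 5′ to 3′, to show how far the pair share their upstream sequence. Capitals mark bases that differ in the alignment or face a gap in it.
Gstp1 (chr19:4037913-4037992, minus strand): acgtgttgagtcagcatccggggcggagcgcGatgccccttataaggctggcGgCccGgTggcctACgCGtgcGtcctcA
Gstp2 (chr19:4042222-4042301, minus strand): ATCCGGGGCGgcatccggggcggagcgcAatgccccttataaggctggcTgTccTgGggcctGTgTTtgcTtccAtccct
Gstp3, whose transcript shared no window with either, was at 8.64 and 9.04 CPM in WT and 11.5 and 13.2 CPM in KO libraries (log2 fold change 0.48, SE 0.29, adjusted p = 0.261).

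Mgst2, a microsomal transferase that can make leukotriene C4, rose from 3 and 6 reads to 23 and 30 reads, a ratio of scaled reads of 5.87 (95% interval 2.87 to 13.5, counting error only). Its adjusted p was 0.0245 by edgeR, 0.0673 by DESeq2, 0.155 without KO1 and 0.211 without KO2. Gstz1 (ENSMUSG00000021033), which also serves tyrosine breakdown as maleylacetoacetate isomerase, fell from 60.2 and 56.3 CPM to 27.5 and 28.6 CPM (log2 fold change -1.05, SE 0.19, adjusted p = 0.00944, but 0.092 without KO1 and 0.0888 without KO2). Gstt2 fell from 28.6 and 16.6 CPM to 10.4 and 8.78 CPM (log2 fold change -1.24, SE 0.32, adjusted p = 0.033, but 0.0768 without KO1 and 0.167 without KO2). Gstt4 had no reads in either WT library and 11 and 8 reads in the KO libraries, at least 3.18-fold higher against a floor of 3 reads per library. It did not pass the filter and has no test. The most abundant transferase was Gsta4, which acts on lipid peroxidation products, at 329 and 293 CPM in WT and 260 and 214 CPM in KO libraries (log2 fold change -0.39, SE 0.19, adjusted p = 0.177). Gsta3 (52 and 34 reads against 174 and 95 reads) missed the threshold at an adjusted p of 0.0506, and Gsto1 had a log2 fold change of 0.70 at 0.0736. Of 12 other settings with all libraries, Gsta3 was not called in 7 and Gsto1 in 10. With a library left out, their log2 fold changes ran from 1.03 to 2.08 and from 0.39 to 0.96.

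**Figure D4:**
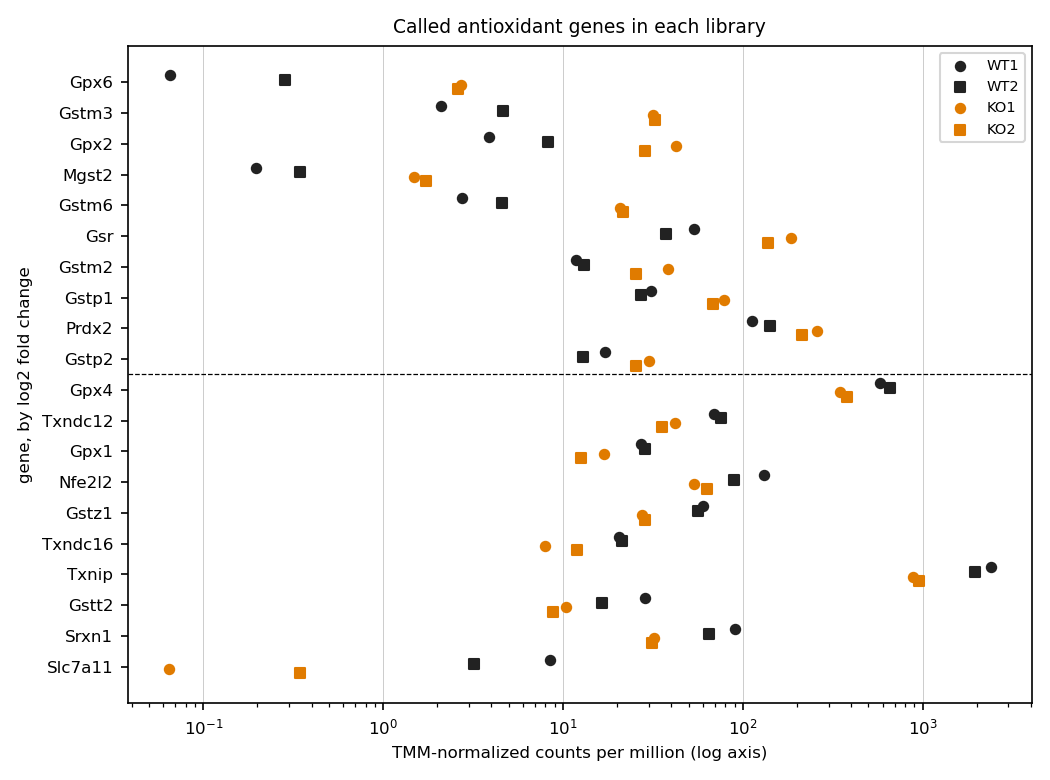
TMM-normalized CPM on a log axis for the 20 called genes in each library (black WT, orange KO), ordered by log2 fold change with a dashed line between the 10 up-regulated and the 10 down-regulated genes. The KO and WT points of each gene do not overlap, and the genes span levels from under 1 CPM to 2399 CPM.

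The remaining genes of the pathway list concern the factors that share DNA sites with Nrf2 and its other targets. Of 11 partners and competitors, Nfe2l3 was up-regulated, and Bach1 and Maff were down-regulated. These are 9.09% and 18.2%, against 11.0% and 10.7% of all tested genes. Bach1, a repressor that competes with Nrf2, was at 133 and 72.3 CPM in WT and 52.1 and 44.8 CPM in KO libraries (log2 fold change -1.08, SE 0.29, adjusted p = 0.0354, but 0.153 without KO2). Maff, a small Maf protein, had 203 and 353 reads in WT and 110 and 128 reads in KO libraries (log2 fold change -1.21, SE 0.32, adjusted p = 0.0326, but 0.172 without KO1 and 0.155 without KO2). Nfe2l3, a relative of Nrf2, had 61 and 79 reads against 175 and 175 reads (log2 fold change 1.32, SE 0.33, adjusted p = 0.0274, but 0.218 without KO1 and 0.128 without KO2). Of 18 other Nrf2 target genes, 2 were up-regulated (11.1%, against 11.0% of all tested genes) and none was down-regulated by edgeR. At an unadjusted p under 0.05, 5 were higher and 1 was lower, and by DESeq2 3 were higher and 1 was lower. Both KO libraries lay above both WT libraries for 9 of the 18 and below them for 2, against 33.2% and 32.5% of all tested genes. Ftl1, the ferritin light chain, rose from 429 and 322 CPM to 975 and 920 CPM (log2 fold change 1.34, SE 0.21, adjusted p = 0.00641). Akr1b8, an aldo-keto reductase, rose from 16.6 and 19.3 CPM to 38.1 and 35.9 CPM (log2 fold change 1.04, SE 0.21, adjusted p = 0.0145, but 0.132 without KO1 and 0.0845 without KO2). Selenocysteine is a residue of several glutathione peroxidases, not only of those that fell, and of the thioredoxin reductases. None of 7 genes that place it was called by edgeR or by DESeq2, and 1 had an unadjusted p under 0.05. By edgeR, 21.7% of all tested genes were called.

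All 20 calls held when WT1 or WT2 was left out. With KO1 left out 9 of the 20 held, and with KO2 left out 10 held, each with a lone KO library assumed to vary like the WT pair. The 9 that held with any library left out were Slc7a11, Gsr, Gpx2, Gpx6, Srxn1, Txnip, Gstm3, Gstm6 and Gstp1. Of the 20 called genes, Gsr and Prdx2 lie on chromosome 8 and none lies on chromosome 11.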

How the data were processed

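From 150-bp paired-end reads aligned with HISAT, the authors deposited a count of reads per gene without normalization, together with FPKM values. The submitters' processing notes name HISAT2 2.0.5, featureCounts 1.5.0-p3 and mm10. Whether strand was used is not given in the sources used here. The deposited gene coordinates differ from the GRCm38 annotation for most genes, so chromosomes alone are given for genes.

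Counts were normalized by TMM and tested with edgeR 4.0.16 in R 4.3.3 (filterByExpr, quasi-likelihood test, Benjamini-Hochberg adjustment over 18157 genes), after a check on simulated data. Calls needed an adjusted p below 0.05 together with more than a 1.5-fold change. Each SE of a log2 fold change is its absolute size divided by the square root of the F statistic of that test. Alternatives used DESeq2 1.42.0, limma 3.58.1 on log2 FPKM, other filters and scalings, removal of chromosome medians, pseudogene sums (matched ones added after the data were seen) and leaving out each library. Members and lists were chosen with earlier results of these data known. Called members and a set core are given by library, and of other pathway genes only those called. Shared windows are 100-base stretches of a member's transcript found in another gene's transcripts. Depth limits precision, and the floor of 3 reads covers counting error only.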

Additional observations from a re-analysis of the deposited data

How the results depend on the processing

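Of the 65 tested genes, the number up-regulated was 10 and moved to 18 with no filter on low counts and to 18 with a replicate block, and with each library left out it ran from 6 (without KO1) to 22 (without WT2). The number down-regulated was 10 and lay between 3 (without KO1 or KO2) and 13 (without WT1). In the list of 56 further pathway genes, 5 were up-regulated (9 with the replicate block, 1 to 12 with a library left out) and 7 were down-regulated (3 to 10 with a library left out). Nothing in the sources used here says whether same-numbered libraries were prepared together. The correlation between their deviations was 0.33 over 2 pairs, and with the block all 20 calls remained. DESeq2 gave 11 and 10 (71 genes fitted), FPKM with a pseudocount of 1 gave 9 and 7, and chromosome medians removed gave 9 and 8. RLE scaling, protein-coding genes alone, no fold threshold and either pseudogene sum gave 10 and 10, and upper-quartile scaling gave 12 and 10. For none of these alternatives was the share called over all tested genes taken.

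Of the genes given by library, 6 changed sign under some alternative, and none of the 6 was called with all 4 libraries. The log2 fold change of Txn2 was 0.0141 and that of Hmox1 -0.303 with chromosome medians removed, and that of Txnrd2 was -0.0131 among protein-coding genes alone. With a library left out, Txnrd1 ranged from -0.0772 to 0.38, Txn2 from -0.15 to 0.0403, Hmox1 from -0.091 to 0.59, Prdx4 from -0.18 to 0.0424, Gss from -0.0997 to 0.42 and Txnrd2 from -0.0375 to 0.0514. Of the 73 genes, 8 did not pass the filter on low counts and were not tested, and for these low depth and lack of expression cannot be told apart. The widest counting intervals were those of Slc7a11 and Gpx6.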
